A study of Caenorhabditis elegans with 2 samples.

Results

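The 412 regions described here are peaks called for tagged HMG-20 in Caenorhabditis elegans. They are in the list made from both replicates and in neither list made from 1 replicate. They were selected on the deposited peak calls, as the regions of the conservative list on the nuclear chromosomes that share no base with a region in the thresholded list of replicate 1 or of replicate 2. They make up 42.1% of the 979 nuclear regions of that list. The other 567 comprise 162 found in the replicate 1 list only, 134 in the replicate 2 list only and 271 in both. The 20 mitochondrial regions of the list, which holds 999 in all, were left out. The data come from chromatin immunoprecipitation followed by sequencing, with an antibody against GFP, in 2 biological replicates of 1 group. All worms were whole young adults of strain RW12240, aged 64 hours and synchronised by starvation of the first larval stage after bleaching. They carried the allele st12240, in which CRISPR put a tag of TY1, EGFP and 3xFLAG on hmg-20, so the signal comes from any tissue that holds the tagged protein. Read totals were not part of the lists, and the depth behind a region is therefore unknown. Positions are on ce11.

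HMG-20 has a high-mobility-group box, a domain that binds and bends DNA with little sequence preference, and is related to the mammalian HMG20 proteins that work with the CoREST and LSD1 complex, a remover of methyl marks from histone H3. The irreproducible discovery rate (IDR) ranks peaks by how well their ranks match between a pair of measurements, so that a moderate peak seen equally in both can pass while a stronger one seen in 1 fails. Genes of tRNAs are transcribed by RNA polymerase III from an internal promoter made of an A box and a B box. Most spliceosomal snRNAs and the spliced leader RNAs of nematodes have polymerase II promoters upstream of the gene.

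Sequences at 6 summits show several of the kinds of site that the regions cover, 1 for each kind shown, each taken at the strongest region of its kind for which a sequence could be shown. Here and below, strongest means the highest pooled signal, the authors' value for the combined data, which can differ from the order by replicate signal. Each run is 151 bases of the RefSeq WBcel235 genome, plus strand, 5′ to 3′, with 75 bases on each side of the summit. Capitals mark matches to 7 motifs searched on both strands, and a match on the minus strand appears as its reverse complement. At the tRNA gene they are TTTGAA on the plus strand and the B box GTTCNANNC on the minus strand, the strand of the gene. In the lips-10 intron they are a B box and the A box TGGCNNAGT, both on the minus strand. At T04A8.17 and the intergenic region they are AACAAT, and at C30C11.14 TTTGAA at 2 places. The mrpl-28 window has no match.
WBGene00023164 (tRNA), chrII:3567706-3567856: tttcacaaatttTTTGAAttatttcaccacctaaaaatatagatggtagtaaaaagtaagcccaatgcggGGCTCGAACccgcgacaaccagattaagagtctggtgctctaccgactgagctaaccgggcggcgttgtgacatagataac
T04A8.17 (snoRNA), chrIII:4689735-4689885: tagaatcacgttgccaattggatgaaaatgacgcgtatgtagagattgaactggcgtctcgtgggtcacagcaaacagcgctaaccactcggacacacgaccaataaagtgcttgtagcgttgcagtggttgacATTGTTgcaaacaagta
mrpl-28 promoter, chrII:156038-156188: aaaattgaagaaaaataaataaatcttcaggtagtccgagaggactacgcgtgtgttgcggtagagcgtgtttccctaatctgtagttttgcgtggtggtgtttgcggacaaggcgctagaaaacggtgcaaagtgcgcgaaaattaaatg
C30C11.14 (ncRNA), chrIII:8447098-8447248: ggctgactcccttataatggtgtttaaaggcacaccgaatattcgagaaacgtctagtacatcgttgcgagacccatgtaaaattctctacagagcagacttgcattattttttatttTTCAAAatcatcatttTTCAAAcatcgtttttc
lips-10 intron, chrII:8441632-8441782: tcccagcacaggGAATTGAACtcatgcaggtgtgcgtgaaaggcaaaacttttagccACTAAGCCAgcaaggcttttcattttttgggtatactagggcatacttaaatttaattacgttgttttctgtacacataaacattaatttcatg
intergenic, ric-7 nearest, chrV:14008552-14008702: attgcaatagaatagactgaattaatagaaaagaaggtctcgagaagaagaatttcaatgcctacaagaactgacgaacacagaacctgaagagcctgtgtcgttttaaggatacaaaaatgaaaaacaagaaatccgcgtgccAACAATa

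The B box letters were found in 16.5% of the 412 windows of this length, in 22.6% of the windows at the other 567 conservative regions and in 6.67% of those at all 59096 ranked nuclear regions. Within the group the share was 68.8% of 64 windows in tRNA promoters and 6.90% of the other 348. The shares for the A box letters were 6.31%, 5.47% and 1.97% in the 3 sets. Within the group these letters were found in 7.81% of windows in tRNA promoters and 6.03% of those outside them. Most tRNA windows thus had no match to this strict string, and the shares describe the letters and not A boxes. For TTTGAA, the core of the cell cycle homology region that the DREAM complex binds, they were 22.3%, 22.4% and 28.9%. The letters AACAAT, which resemble the sites of sequence-specific high-mobility-group proteins, were found in 9.71%, 12.7% and 14.7%. The palindrome CACGTG, an E-box read by basic helix-loop-helix factors, was found in 6.55%, 3.70% and 3.79%. The site of intestinal factors of the GATA family, TGATAA, was found in 8.01%, 7.05% and 11.7%. The repeat GAGAGAGA was found in 4.85%, 3.88% and 1.78%. Some matches overlap each other, and a match describes letters only. The median GC content of the windows was 46.4%, against 47.7% at the other conservative regions, 41.1% at all ranked regions and 35.4% in the nuclear genome.

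The signal at these regions was low in both replicates, which is part of how they were chosen and is given as a description. The signal is the authors' peak height, on a scale the files do not state. In replicate 1 it ran from 24.7 to 55.4, with a median of 33.6. In replicate 2 it ran from 23.4 to 57.2, with a median of 31.3. The regions in both lists had medians of 66.3 and 56.7. Only 1 of the 412 regions was above the median of the replicate 1 thresholded list (53.9), and 4 were above that of replicate 2 (49.1).

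The replicates lay close together at most of the regions. The higher signal was a median of 1.19 times the lower one, and 1 region, or 0.243%, had signals more than 2 times apart. That region stands 181 bp upstream of pkhm-2 on X, with 51.7 in replicate 1 and 25.1 in replicate 2. Signals were over 2 times apart at 34 of the 162 regions in the replicate 1 list only, at 4 of the 134 in the replicate 2 list only and at 13 of the 271 in both. A region high in 1 replicate would tend to be in that replicate's list, so the narrow spread follows in part from the choice. Replicate 1 was the higher at 251 of the 412 regions, or 60.9%, and at 191 of the 271 in both lists.

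**Figure D1:**
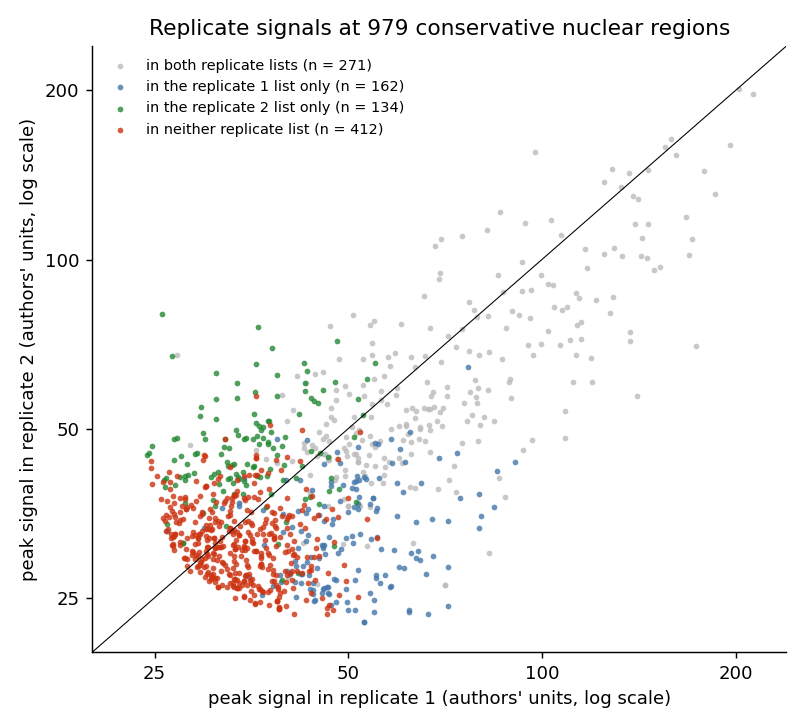
Peak signal in replicate 1 (horizontal) and replicate 2 (vertical), both in the authors' units on log scales, with 1 point for each of the 979 conservative nuclear regions, coloured by the replicate lists that hold it; the line marks equal signals. The 412 regions in neither list (red) fill the corner with 24.7 to 55.4 in replicate 1 and 23.4 to 57.2 in replicate 2.

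Absence from a replicate's thresholded list did not mean absence from that replicate. Each conservative region carries a peak from each replicate, so this follows from how that list was made. Each replicate also has its own ranked list, with an IDR of its own for each peak, and 405 of the 412 regions had the same peak on record in both ranked lists. Of all 979 conservative nuclear regions, 972 had the same record in replicate 1 and 973 in replicate 2, so such records are not particular to the 412. The own IDR had a median of 0.0936 in replicate 1 (n = 409) and 0.119 in replicate 2 (n = 408), where the threshold is 0.01. It was at or below 0.1 in both replicates at 83 of the 405 regions, in replicate 1 alone at 128, in replicate 2 alone at 98 and in neither at 96. With both replicates combined the IDR was 0.000189 to 0.01, with a median of 0.00451. A strong signal did not always go with a low own IDR, since the region of R11A5.6 had the highest replicate 2 signal, 57.2, and an own IDR of 0.856 there.

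**Figure D2:**
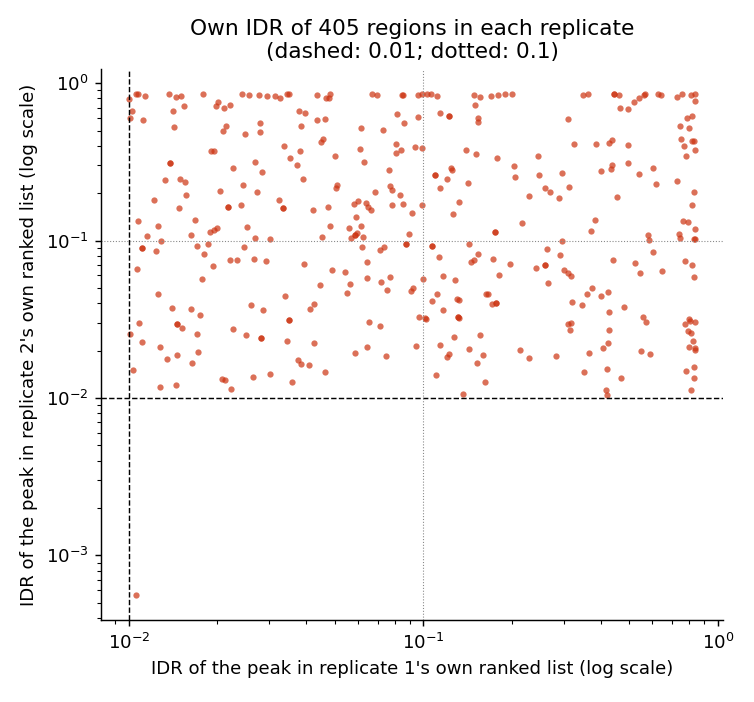
IDR of the same peak in the own ranked list of replicate 1 (horizontal) and replicate 2 (vertical), both on log scales, with 1 point for each of the 405 regions on record in both; dashed lines mark 0.01 and dotted lines 0.1. All but the point at 0.000558 in replicate 2 spread over the range above 0.01, and 83 lie at or below 0.1 on both axes.

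Few of the regions lay at the edge of a region in a replicate list. The median gap to the nearest region in either replicate list was 33300 bp, and 10 of the 412 lay within 500 bp of one. The smallest gaps were 0 bp at T28F4.7 (chromosome I, 7475404 to 7475659), where the regions abut, 165 bp at the tRNA gene WBGene00023008 and 177 bp at eel-1, which encodes a HECT-type ubiquitin ligase. The T28F4.7 region had an own IDR of 0.000558 in replicate 2, past the threshold, and counts among the 412 only because it shares no base with the listed region beside it. Its pooled signal was 9.41, below its replicate signals of 32.2 and 47.9. On the other side of the rule, the conservative regions with the smallest overlap with a replicate list were those of srpr-2.1 (30 bp), kin-14 (41 bp) and lsm-7 (54 bp). At the threshold itself, the 14 regions with scores of 830 to 839 had a median pooled signal of 59.2 and a median lower replicate signal of 26.3. The 18 ranked regions with scores of 820 to 829, just outside, had 57.5 and 25.2. Among the 412, 266 (64.6%) overlapped a region of the other thresholded list made from both replicates, as did 551 (97.2%) of the other 567.

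Pooled signal, which has no error of its own, had a median of 63.8 and lay near the sum of the replicate signals at most of the regions. At 19 of the 412, or 4.61%, it lay below both replicate signals. At byn-1, which encodes a bystin-related protein, it was 2.44, with 34.4 and 26.8 in the replicates. Each of the 19 stood 200 to 265 bp from the summit of a stronger ranked region, which was at the lower coordinate in 19 of 19 cases. Of these, 16 carried the same replicate peak as a stronger conservative region, so the replicate signal belongs to both regions. In all, 31 of the 412 regions shared a replicate peak with another conservative region, such as the pair at 16612300 to 16612555 and 16612511 to 16612766 on X, upstream of ain-1, a GW182-type partner of microRNA Argonautes. That pair had pooled signals of 68.0 and 14.4 and the same 30.1 and 39.6 in the replicates.

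**Figure D3:**
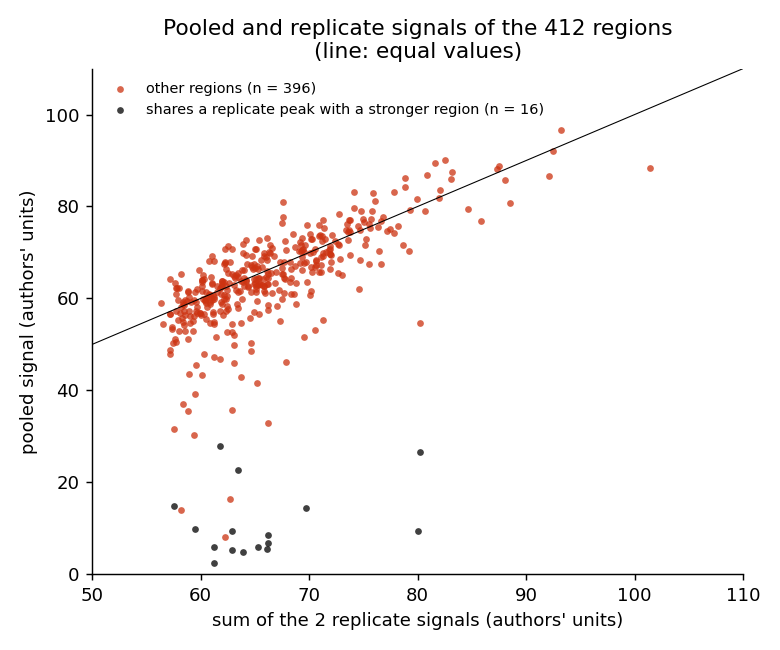
Pooled signal (vertical) against the sum of the 2 replicate signals (horizontal), both in the authors' units, for the 412 regions; the line marks equal values, and black points are the 16 that share a replicate peak with a stronger conservative region. Most points follow the line, and the black ones lie well below it.

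Most summits stood in promoters, taken as the stretch from 1000 bp before a transcript's 5′ end to 200 bp after it. The 412 regions had 295 promoter summits, or 71.6% (95% exact interval 67.0 to 75.9), where all ranked nuclear regions had 39.0%. The share was 84.5% (79.6 to 88.6) for the regions in both lists, 77.4% (72.2 to 82.0) for those in 1 list, and 54.6% (49.7 to 59.5) for the 412 ranked regions next below the threshold. The 412 thus stood between the listed regions and those that failed. These sets differ in rank by construction, and no test between them was made.

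Exons held a larger share as the regions became weaker. They held 48 of the 412 summits, or 11.7% (8.72 to 15.1), against 1.85% of those in both lists, 7.43% of those in 1 list, 19.9% of those next below the threshold and 29.1% of all ranked regions. Of the 48, 30 were in coding exons, 13 in untranslated exon parts and 5 in exons of other gene classes. The strongest of them lay in a coding exon of tos-1, a gene used as a marker of splicing, with replicate signals of 46.1 and 34.5. Introns held 30 summits, or 7.28%, against 3.17% of the other 567 and 19.3% of all ranked regions. Intergenic sequence held 39, or 9.47% (6.82 to 12.7), near the 11.3% of the other 567 and the 12.6% of all ranked regions. The median pooled signal was 64.8 in promoters, 59.0 in exons, 61.3 in introns and 62.3 between genes.

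**Figure D4:**
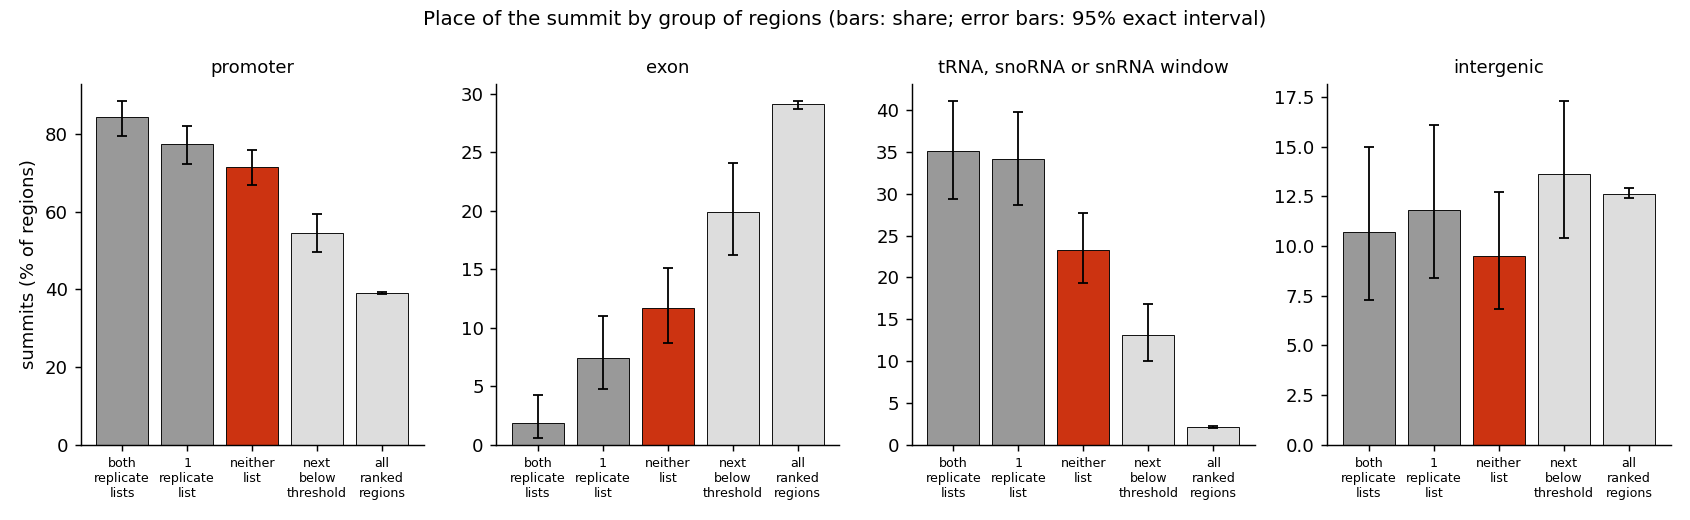
Share of summits (vertical, % of regions) in promoters, in exons, in the promoter window of a tRNA, snoRNA or snRNA gene and between genes, for 5 sets of regions; error bars are 95% exact binomial intervals and the 412 regions are in red. From both lists to all ranked regions the promoter share goes from 84.5% to 39.0% and the exon share from 1.85% to 29.1%.

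Small RNA genes had a large part of the summits. The promoter window of a tRNA, snoRNA or snRNA gene held 96 of the 412, or 23.3% (19.3 to 27.7), where 2.13% of all ranked regions had such a summit. The share was 34.6% (30.7 to 38.6) at the other 567 and 13.1% next below the threshold. By kind, tRNA windows held 64 of the 412 (15.5%, against 21.3% of the other 567), snoRNA windows 20 (4.85%, against 10.6%) and snRNA windows 12 (2.91%, against 3.00%).

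The tRNA summits stood close to the 5′ end of the gene, on either side of it. Where a tRNA gene had the nearest 5′ end, the summit stood at a median of 12.5 bp downstream of it, 24 of 54 were upstream of it, and 52 of 54 were within 100 bp. The region at a tRNA gene with the highest pooled signal, 89.4, is shown above and lay on WBGene00023164, a tRNA-Lys gene (chromosome II, 3567764 to 3567836, minus strand). Its signals were 39.3 and 42.3 in the replicates, or 40.8 ± 2.07 (SD, n = 2). WBGene00023165, a tRNA-Thr gene, starts 100 bp from the same summit. On X, the region at the tRNA-Gly gene WBGene00023070 had 52.1 and 49.3, the highest lower replicate signal of all 412. The own IDR of that peak was 0.0107 in replicate 1, close to the threshold, and 0.854 in replicate 2.

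Genes of nearly every tRNA kind were among them. A summit stood in the window of 78 of the 612 tRNA genes, and RefSeq gives the amino acid for 77 of these. They include 9 of 41 tRNA-Glu, 8 of 46 tRNA-Lys, 8 of 34 tRNA-Ala, 7 of 42 tRNA-Pro, 6 of 55 tRNA-Gly and 6 of 34 tRNA-Thr genes. None of the 14 tRNA-Phe, 12 tRNA-Trp or 1 tRNA-Sec genes had one. With each gene counted at its strongest summit, the 78 genes were reached through 63 of the 64 regions in tRNA windows, and copies of a tRNA gene can be near-identical, so the placement of reads between copies is uncertain. X held 35 of the 64 regions in tRNA windows, or 54.7%, and it holds 276 of the 612 tRNA genes, or 45.1%. Of the other 567 regions, X held 66 of the 121 in such windows, or 54.5%. Outside tRNA windows, X held 46 of 348 regions, or 13.2%, and 14.1% of 446 others.

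The regions of snoRNA and snRNA genes lay mostly just upstream of the gene. The summit stood at a median of -41 bp where a snoRNA gene was nearest (n = 14) and -36 bp where an snRNA gene was nearest (n = 13). The quartiles were -81.25 and -29.25 bp for snoRNA genes and -42 and 38 bp for snRNA genes, so some of the snRNA summits were downstream of the 5′ end. T04A8.17, the strongest of the first kind, had 42.9 and 39.1, or 41.0 ± 2.70 (SD, n = 2), 39 bp upstream of the gene. F11A10.9, a snoRNA gene on chromosome IV, had 42.1 and 33.8, with the summit 3 bp upstream.

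Spliced leader genes, whose RNAs are joined to the front of many worm messages, were counted with the snRNAs. The region of sls-2.15 and sls-2.14 (chromosome III, 11091060 to 11091315) had 47.5 and 31.4, and its summit was 178 bp downstream of the 5′ end of sls-2.15. That of sls-2.18 on the same chromosome had 35.8 and 41.4. At sls-2.3 (chromosome II, 5544185 to 5544440) the signals were 43.2 and 29.5, and the own IDR was 0.01 in replicate 1, at the threshold, and 0.79 in replicate 2. The spliced leader genes form a family of related copies, and how reads were placed among them was not stated.

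**Figure D5:**
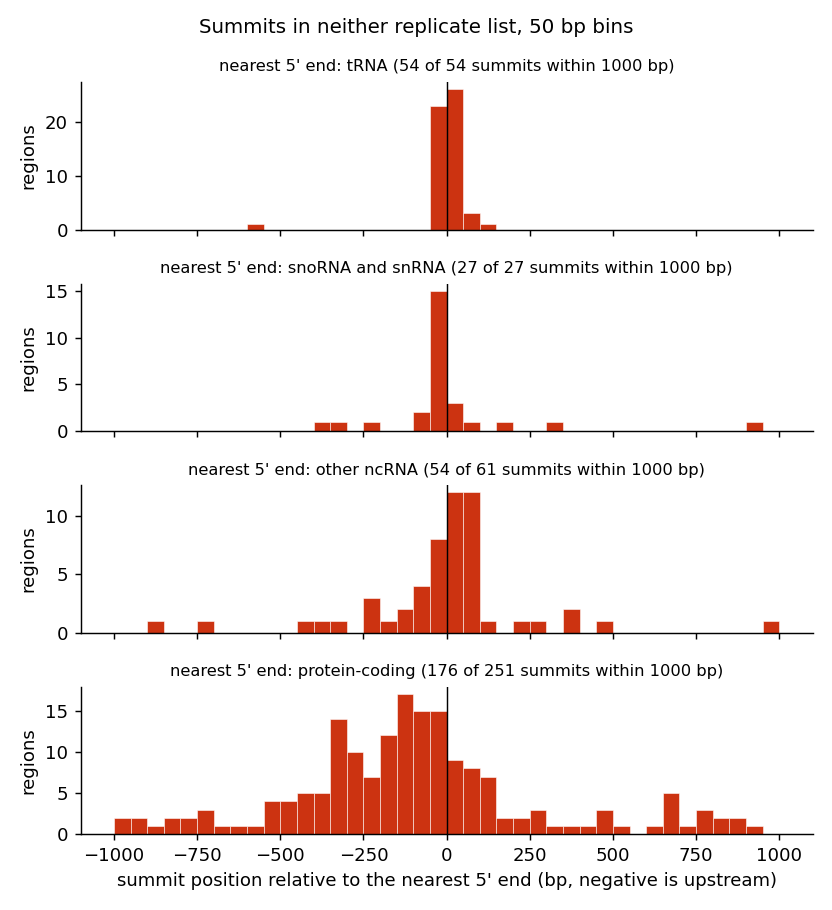
Number of regions (vertical) by position of the summit relative to the nearest 5′ end (horizontal, bp, negative is upstream, bins of 50 bp), for the regions within 1000 bp, in 4 panels by the class of the gene. The summits at tRNA, snoRNA and snRNA genes stand close to the 5′ end, and those at protein-coding genes spread more widely, mostly upstream.

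Counted by gene, 522 of 46890 nuclear genes, or 1.11%, had 1 of the 412 summits in their own promoter window. Summits of the other conservative regions stood in the windows of 877 of the 46890 genes, so most genes had none. Of the 522, 505 had no summit of another conservative region, which is 36.5% of the 1382 genes with any conservative summit. By class these were 78 tRNA (12.7% of the class), 20 of 346 snoRNA (5.78%), 13 of 129 snRNA (10.1%), 121 of 7764 other ncRNA (1.56%), 10 of 2128 pseudogenes (0.470%) and 240 of 19973 protein-coding genes. With each gene counted at its strongest summit, the 121 ncRNA genes came from 97 regions. Some lie over a tRNA or snRNA gene and share its region, such as F09B9.7 at the tRNA gene WBGene00014318, so the classes are not separate sites. MicroRNA genes had 4 of 261, which were mir-52, mir-82, mir-241 and mir-4812. The let-7 family member mir-241 had its summit 551 bp upstream, with signals of 33.0 and 37.7, nearest to another gene, F56A12.8.

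The 35 of 15363 piRNA genes (0.228%) came from 12 regions, and 14 of them from 1 region on chromosome IV (15570827 to 15571082). The piRNA genes of worms, which encode the 21U-RNAs of the germ line, lie in dense clusters, so a count of genes overstates the count of sites. The region of the 12 with the highest pooled signal, 77.6, lay 2 bp from the 5′ end of the tRNA gene WBGene00023166 on chromosome IV, with 34.0 and 33.6, and 4 piRNA genes have that summit in their windows.

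Protein-coding genes had a summit at 240 of 19973, or 1.20%, and 232 of these had none from the other conservative regions. Over all 19973 genes, 393, or 1.97%, had a summit of those other regions, so most genes lack one. Where a protein-coding gene was nearest (n = 251), the median summit position was -63 bp with quartiles of -320.5 and 684 bp, and 18.7% were within 100 bp. The other 567 regions had a median of -146 bp with quartiles of -274 and 34.5 bp (n = 279). The upper quartile was downstream of the 5′ end in both sets.

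The strongest of all the regions (chromosome I, 7868364 to 7868619) stood 574 bp upstream of R11A5.6 and in the window of pck-2, which encodes phosphoenolpyruvate carboxykinase, an enzyme of glucose synthesis. Its pooled signal was 96.7, and the replicates had 35.9 and 57.2, or 46.6 ± 15.1 (SD, n = 2). The next (chromosome III, 8447045 to 8447300) lay between rpn-3, a subunit of the proteasome's regulatory particle, and hsp-110, a large chaperone of the HSP70 superfamily. It had 48.3 and 44.2, or 46.2 ± 2.89 (SD, n = 2), and the ncRNA gene C30C11.14 started nearest to it. Of these 4 replicate values, the replicate 2 signal at R11A5.6 alone reached the median of that replicate over the regions in both lists.

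The 20 strongest also included regions at mrpl-28, idhg-1 and cox-5B. The mrpl-28 region (chromosome II, 155985 to 156240) had its summit 104 bp before this gene for a mitochondrial ribosomal protein, with 55.4 and 31.9, or 43.6 ± 16.6 (SD, n = 2). The region of idhg-1, a subunit of isocitrate dehydrogenase in the citric acid cycle, had 47.2 and 36.0, with the summit 49 bp upstream. The region of cox-5B, a subunit of cytochrome c oxidase, had 42.4 and 49.7, or 46.1 ± 5.18 (SD, n = 2), 63 bp upstream. The replicates are far apart at mrpl-28, where replicate 1 was 1.73 times replicate 2, and closer at the other genes. Others among the 20 were gna-1, an enzyme of the hexosamine pathway, with 53.5 and 34.5, ndk-1, a nucleoside diphosphate kinase, with 46.6 and 27.6, and reps-1, with 44.0 and 38.0. The region in the lips-10 intron had 49.9 and 37.6, with its nearest 5′ end, that of the translation initiation factor gene eif-3.G, 1060 bp away. The strongest intergenic region was 2715 bp from ric-7, a gene needed for mitochondria in axons, with 36.0 and 44.8.

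Ribosomal protein genes, of which 19 of 83 had a summit of the other 567 regions, had 8 further genes here, or 9.64%, beside the 1.20% of all protein-coding genes. The strongest was rps-23 of the small subunit (chromosome IV, 12391185 to 12391440), 260 bp upstream, with 40.1 and 37.7, or 38.9 ± 1.70 (SD, n = 2). The others were rps-11 with 29.4 and 37.9, rpl-14 with 28.0 and 36.0, rpl-27 with 33.5 and 32.7, rpl-23 with 39.8 and 27.9, rpl-16 with 33.6 and 26.9, and the pair rpl-24.1 and rps-10. That pair is transcribed away from a shared region with 39.9 and 30.1. None of the 8 genes had a summit of the other 567, which 1.97% of all protein-coding genes had.

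Other lists of the protein machinery had few genes each. Mitochondrial ribosomal protein genes had 3 of 70, which were mrpl-28, mrps-7 with 32.6 and 34.9, and mrps-35 with 40.6 and 27.7. Respiratory chain genes had 4 of 45, with the cytochrome c1 gene cyc-1 at 49.2 and 28.6, the ATP synthase gene atp-5 at 35.6 and 31.3 and the complex III gene ucr-2.2 at 37.6 and 28.2 besides cox-5B. Chaperone genes had 4 of 66, which were hsp-110, the endoplasmic reticulum chaperone hsp-3 with 46.4 and 23.4, dnj-14 with 40.2 and 31.0, and the chaperonin subunit cct-7 with 29.0 and 31.1. The 2 of 33 proteasome genes were rpn-3 and the deubiquitinating subunit rpn-11, with 36.6 and 29.5. The other 567 regions had 0 of the 33, beside 1.97% of all protein-coding genes, so 0 in a list this short says little. Translation factors had 2 of 41, eef-1G with 42.4 and 35.8 and eef-1B.1 with 29.0 and 29.8. Splicing factors had 0 of 58 and aminoacyl-tRNA synthetases 0 of 32, with 6 and 1 at the other 567. The lists do not hold every gene of a kind, so these counts hold for the listed genes alone. For example, rbm-39, with 34.8 and 35.9, and nduf-11, with 32.8 and 42.7, had a summit here and are in none of the lists.

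The tagged gene itself had a region of this kind. The hmg-20 region (chromosome I, 12534468 to 12534723) had its summit 718 bp before the gene, with 34.6 and 34.1, or 34.4 ± 0.314 (SD, n = 2), and a pooled signal of 71.1. The replicates were nearly equal there, and close to the medians of the 412. It was the 1 gene with a summit among 12 in the list of CoREST and LSD1 factors, and the other 567 regions had 0 of the 12. Over all protein-coding genes the other 567 had 1.97%, so 0 of so few says little. Among 8 DREAM complex genes, which repress cell cycle genes, efl-1, an E2F factor, had one with 41.1 and 29.8, and 3 further genes had a summit of the other 567. Cell cycle and replication genes had 3 of 88, the cyclin E gene cye-1 with 39.0 and 24.1, the spindle checkpoint gene mdf-2 with 24.7 and 42.6 and the kinetochore gene hcp-1 with 37.7 and 29.8. Histone methyltransferases had 0 of 46 and histones 1 of 72, his-63.

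The lists of yolk, oocyte and small RNA pathway genes had few members with a summit. The yolk protein gene vit-2 on X had 35.0 and 27.6, with the summit 129 bp downstream of its 5′ end, and rme-2, the yolk receptor of oocytes, had 35.5 and 31.9. These were the 2 of 7 genes in the vitellogenin list, with 0 at the other 567, which had 1.97% of all protein-coding genes. The gene rme-2 was also the 1 of 53 in the list of germline granule and oocyte genes. The RNA interference helicase gene rde-12, with 27.7 and 34.5, and ain-1 were the 2 of 50 in the list of the microRNA pathway and Argonautes. Among regulators, nuclear hormone receptors had 1 of 269, nhr-49, a regulator of fat metabolism, with 35.3 and 25.8. Homeobox factors had 1 of 92, ceh-39, a signal element of the X in sex determination, with 27.4 and 34.4.

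Large families of sensory, immune and structural genes had summits at few members. Chemoreceptor genes had 2 of 1309, srz-97 and srh-89, C-type lectins 2 of 240, clec-126 and clec-57, cuticle collagens 0 of 169 and neuropeptides 0 of 140. The region of srz-97 and clec-57, with 29.9 and 39.4, was the same one and had the snRNA gene F08H9.11 nearest, and that of clec-126 had a tRNA gene nearest. Promoter windows overlap elsewhere too, since 48 of the 412 summits stood in the windows of more than 1 protein-coding gene and 147 in that of 1. Genes of the lists whose region had another gene nearest also include atp-5, mrps-35, cct-7, dnj-14, cye-1, his-63, srh-89, rpl-24.1 and rps-10. The same holds for the microRNA gene mir-52. The lists were chosen with results of these data known, so the counts for the lists are descriptions. They stand beside 1.20% of all protein-coding genes for the 412 regions and 1.97% for the other 567.

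Along the chromosomes, the regions were spread much as the others. Of the 331 on autosomes, 191, or 57.7% (52.2 to 63.1), were in the central 50% of their chromosome's length, against 59.1% of 438 others and 50.6% of all ranked regions on autosomes. X held 81, or 19.7% (15.9 to 23.8), against 22.8% (19.4 to 26.4) of the others. Each region was 256 bp wide, as were 494 of the other 567, or 87.1%.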

How the data were processed

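An antibody against GFP was used to precipitate chromatin from 2 biological replicates of whole worms, sheared by sonication, per the labels. The aligner, like the peak caller, is not given in the sources used here. The labels name a control, which was not analysed here. The deposited lists give for each peak the authors' signal (peak height, pooled or per replicate), a score that rescales the IDR, and −log10 columns for the q-value and the IDR. The lowest score of the conservative list was 830, which is an IDR of 0.01. Replicate signals come from the authors' ranked list, where the order of the replicates is not named. Its first column has the same record as the ranked list of replicate 1 at 409 of the 412 regions and its second that of replicate 2 at 408, with 0 the other way round, and they are called replicates 1 and 2 accordingly. Depth is unknown, so no interval rests on it. Intervals of shares are exact Clopper-Pearson intervals at 95% and cover counting error only. Values are mean ± SD over 2 replicates.

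Overlap of 1 bp counted as shared. Summits were placed with Ensembl release 115 on WBcel235, the same assembly as ce11 (0 ranked regions lie outside its chromosomes), in the order promoter, exon, intron, intergenic. No test across regions or genes was made. Named genes are mainly those within 1000 bp of the 20 strongest regions, up to 4 per class or list, those at the edge of the rule and hmg-20. All ribosomal protein genes with a summit are also named, and eif-3.G and ric-7 as nearest genes beyond 1000 bp. The genes rbm-39 and nduf-11 were picked as examples from outside the lists. Genes in exons, at pkhm-2 and at byn-1 and the other regions singled out were chosen after their values were seen. The sequence of 1 kind of site is not reported here. The regions, the 22 gene lists and the motifs were chosen with earlier results of these data known. Of the steps, only the overlap of regions and the promoter windows were tested on simulated data. Python 3.11.15, NumPy 2.4.6, pandas 2.3.3, SciPy 1.17.1 and matplotlib 3.10.9 were used.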

Additional observations from a re-analysis of the deposited data

How the results depend on the processing

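The 6 summary values (number of regions, promoter, small RNA, intergenic and X shares, and median replicate signal) were recomputed under alternatives. Of 57 values, 48 stayed within the spread of the first (for counts, within 1.5 times). Most alternatives hold all or nearly all of the same regions, so much of this agreement was built in. With only 1 replicate list in the rule, the group had 546 to 574 regions, a promoter share of 72.3% to 74.0%, a small RNA share of 24.6% to 27.8%, an intergenic share of 9.16% to 11.0%, an X share of 19.5% to 21.1% and a median replicate signal of 33.8 to 34.1. At a global IDR of 0.001, 21 regions were left, with a promoter share of 76.2%, a small RNA share of 28.6% and a median signal of 41.6. With promoters from 2000 bp upstream, the promoter share was 79.9% and the intergenic share 5.83%. Counting protein-coding 5′ ends only, they were 47.3% and 16.7%. The last 2 follow from the wider or narrower definition of a promoter. Leaving out the 16 regions that share a replicate peak with a stronger region was an alternative chosen after seeing the data, and gave 396 regions with a promoter share of 73.0%. No paired analysis was possible because there is 1 group and no comparison between groups. Without read totals, how the number of regions depends on depth was not tested.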

Other observations

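An A box match followed by a B box match 20 to 80 bp further on the same strand, within 100 bp of the summit, was found at 7 of the 348 regions outside tRNA windows, or 2.01%. It was found at 10 of 446 other conservative regions outside such windows (2.24%) and at 161 of 58363 ranked ones (0.276%), but at 1 of the 64 in tRNA windows, so this strict pair of motifs misses most annotated tRNA genes. The 7 include the lips-10 intron, with replicate signals of 49.9 and 37.6, and regions near cya-1 on chromosome III (35.6 and 40.0), K09B11.4 on chromosome IV (30.5 and 33.7), srt-52 on chromosome V (43.3 and 26.5) and sms-3 on chromosome III (26.0 and 32.9), the pseudogene WBGene00023396 (27.9 and 37.7) and mir-4812 (33.0 and 37.1). The nearest annotated tRNA gene was 1490 bp away at mir-4812 and 803834 bp away at srt-52, the ends of the range. The spacing and the pair were chosen after the sequences were seen.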
